A study of Mus musculus with 8 samples.

Results

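Cytosolic ribosomal protein genes encode the protein part of the ribosome that translates nuclear mRNA. On arrays hybridised with RNA of primary keratinocytes, the epithelial cells of the mouse epidermis, they were represented by 94 probe sets of 44 genes, out of 22626 probe sets that are not controls. A probe set is a group of short oligonucleotides on the array that report together on 1 transcript or on several near-identical ones. Members were chosen by name alone: the probe set had to carry exactly 1 gene symbol, and that symbol had to be Rpl or Rps with a number, Rplp0, Rplp1 or Rplp2, leaving out the Rps6k kinases. Proteins of the large subunit accounted for 24 genes and 43 probe sets, and proteins of the small subunit for 20 genes and 51 probe sets. A further 102 probe sets list a ribosomal protein among several symbols and are not members.

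The cells had been infected with an empty retrovirus, so that all groups carry the vector without an introduced gene. The untreated group has 2 arrays. Tamoxifen, which binds the estrogen receptor, has 6, with 1 each at 20, 40, 60, 120, 180 and 240 min. The titles decide the groups here, since the common description names tamoxifen for untreated samples as well. The dose, the mouse strain and the vehicle are not given in the sources used here, and no arrays of vehicle-treated cells were analysed here. The labels do not say that the arrays came from separate cultures, so the tests measure only the spread between these arrays, which may be technical. Where times are pooled, that spread also holds the differences between times.

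A ribosome is built from ribosomal RNA and 1 copy of most ribosomal proteins, so their mRNAs are made in near-equal demand and are among the most abundant in growing cells. Many of these mRNAs begin with a cytosine followed by a run of pyrimidines, the terminal oligopyrimidine or TOP element. Through this element the mTOR pathway controls how much of the mRNA is translated. In mouse skin, mutations of Rps19 and Rps20 are known to darken the epidermis through p53 in keratinocytes. An expression array measures the amount of mRNA and not its translation.

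The start of the gene, where the TOP element lies, could be read for 38 of the 44 genes from RefSeq (assembly GRCm38.p6), which lists 46 start sites for them. The TOP form was defined as a C at the annotated start followed by 4 bases that are each C or T, read on the gene's own strand. It was found at 8 of the 46 starts (17.4%), against 2.51% of all 32851 RefSeq promoters. A match describes these letters only, and the annotated start may not be the start used in keratinocytes. The 8 genes are printed to let their starts be compared with that of Rpl27a, the member that varied most. Each line gives the 40 bases before the annotated start and the 15 bases from it, 5′ to 3′, and the capitals mark the uninterrupted pyrimidines from the start on.
Rpl14 (chr9:120571477-120571531, plus strand): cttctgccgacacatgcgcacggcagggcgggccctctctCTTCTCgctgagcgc
Rpl35 (chr2:39005117-39005171, minus strand): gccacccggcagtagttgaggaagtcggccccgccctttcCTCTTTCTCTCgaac
Rpl38 (chr11:114668540-114668594, plus strand): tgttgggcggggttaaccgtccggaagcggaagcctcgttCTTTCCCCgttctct
Rplp2 (chr7:141447611-141447665, plus strand): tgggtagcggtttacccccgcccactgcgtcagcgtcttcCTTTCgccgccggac
Rps6 (chr4:86857353-86857407, minus strand): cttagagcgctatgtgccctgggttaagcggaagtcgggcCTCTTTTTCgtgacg
Rps10 (chr17:27635230-27635284, minus strand): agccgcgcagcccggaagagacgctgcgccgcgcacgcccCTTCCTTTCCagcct
Rps18 (chr17:33955651-33955705, minus strand): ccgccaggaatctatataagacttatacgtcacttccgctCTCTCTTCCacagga
Rps27 (chr3:90213634-90213688, minus strand): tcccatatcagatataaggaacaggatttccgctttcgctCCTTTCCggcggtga
Rpl27a (chr7:109519155-109519209, plus strand): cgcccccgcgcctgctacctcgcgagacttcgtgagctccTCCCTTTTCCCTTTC

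The printed start of Rpl27a is pyrimidine for all 15 bases but begins with T at the annotated base, so it did not meet the TOP form. The letters CCGGAAG, the core bound by the ETS family of transcription factors such as GABPA, occurred on either strand within the 300-base promoters of 19 of the 46 starts (41.3%), against 8.86% of all promoters. They belonged to 19 of the 38 genes. In the windows printed above, these letters can be read before the starts of Rpl38 and Rps10.

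Most members were among the brightest features of the array. Levels are given as log2(intensity + 16), where the intensity is the deposited one. The median member lay at 13.49, against 7.71 for all probe sets, and 64 of the 94 members, from 33 of the 44 genes, had a mean above 12. Of the 100 brightest probe sets 30 were members, and 36 more list a ribosomal protein among several symbols. Probe sets bind their targets with different strength, so brightness does not order the genes by amount of mRNA.

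Members of the large subunit reached the highest values. Rpl41, whose product is a very short peptide of the large subunit, had the brightest member, 1455578_x_at, at 14.12 and 14.09 untreated and at 14.12, 14.11, 14.09, 14.09, 14.08 and 14.09 from 20 to 240 min. Rpl37a, a zinc-binding protein of the large subunit, was at 14.08 ± 0.02 (SD over the 8 arrays, of which 6 are different times) by 1416217_a_at. The stalk proteins Rplp0 and Rplp2, which recruit the elongation factors, had means of 13.95 and 13.92. All 8 arrays of Rplp0 lay between 13.91 at 60 min and 14.00 at 40 min. Neither untreated array of Rplp0 is at an end of that range of 0.09.

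In the small subunit, the brightest member was 1415833_x_at of Rps29, at 14.02 and 14.00 untreated and 14.04, 14.03, 14.01, 13.99, 14.00 and 13.99 after tamoxifen. Rps19, mutated in Diamond-Blackfan anaemia, had a mean of 13.56, Rps3, a protein at the mRNA entry of the small subunit that also acts in DNA repair, of 13.55, and Rps4x, the X-linked form of Rps4, of 13.68. Rps27l, the paralogue of Rps27 that p53 induces, had 3 probe sets at 12.75, 12.61 and 12.54. All of these probe sets were measured far above the array's median of 7.71.

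For 11 genes no member lay above 12. They were Rpl12 (highest mean 8.05), Rpl14 (9.65), Rpl27a (8.49), Rpl37 (10.62), Rpl39 (6.77), Rpl39l (7.42), Rpl3l (6.78), Rps25 (10.56), Rps27 (7.75), Rps4l (9.25) and Rps6 (9.44). Rpl39l and Rpl3l are paralogues known for expression in testis and in striated muscle, and RefSeq lists Rps4l as a transcribed pseudogene. The other 8 encode core ribosomal proteins. A bright probe set of such a gene can be missing among the members because it lists several symbols. For Rpl27a, 1426661_at lists 5 symbols and had a mean of 13.62.

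**Figure D1:**
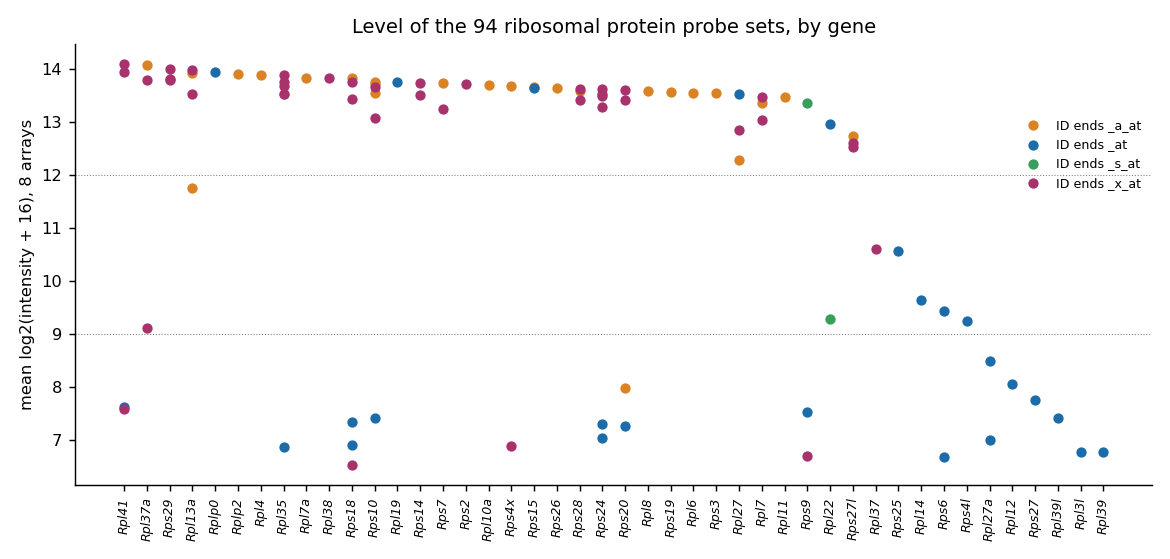
Mean log2(intensity + 16) over 8 arrays for each of the 94 probe sets (points), by gene, with genes ordered by their brightest probe set and colours for the ending of the probe set's name. Dotted lines mark 12 and 9; 64 probe sets lie above 12, and 11 genes have none there.

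Probe sets of the same gene could lie far apart. Of the 21 genes with more than 1 member, Rps18, a protein of the small subunit head, showed the widest gap. Its 6 probe sets had means of 13.83, 13.76 and 13.45 and, for the other 3, of 7.33, 6.91 and 6.54, a gap of 7.29. Gaps of 7.01 in Rpl35, 6.78 in Rps4x, 6.67 in Rps9, 6.59 in Rps24, 6.503 in Rpl41, 6.35 in Rps10 and 6.34 in Rps20 followed. In each of these 8 genes at least 1 probe set was above 12 and at least 1 below 9. Rps15 had the smallest gap, with means of 13.66 and 13.65.

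The dim members were mostly of 1 kind. Affymetrix marks with the ending _x_at a probe set some of whose probes also match other transcripts, and with a plain _at one without such a mark. The first kind made up 42.6% of members and 6.68% of all probe sets, and the plain kind 27.7% against 69.0%. Of the 40 members ending in _x_at, 34 lay above 12 and 4 below 9, while of the 26 plain members 5 lay above 12 and 17 below 9. Ribosomal protein genes have many processed pseudogenes of near-identical sequence, so the values of _x_at members are uncertain as to which copy they report.

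The bright members hardly differed between arrays. Over the 8 arrays the range (highest minus lowest log2 value) of the 64 members above 12 had a median of 0.07, from 0.02 to 0.16. The 8 members between 9 and 12 had a median range of 0.29 and the 22 below 9 one of 0.21. Of the 55 members with a range of at most 0.1, 53 lay above 12, and none of the 12 members with a range over 0.25 did. The limits of 12 and 9 were chosen after the levels were seen.

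A narrow range was also seen in other bright probe sets. Ribosomal probe sets of several symbols were left out here, and the 77 of these above 12 had a median range of 0.07. The 85 remaining probe sets above 13 that are not members had a median range of 0.10, against 0.07 in the 58 members above 13. Bright values lay near the top of the scale. The highest intensity of an array was between 20138 and 20474, and 433 of the 752 member values (57.6%) reached at least 50% of it, against 0.766% of all values. On each array 54 or 55 members did so, and the brightest member stood at 85.1% to 88.4% of the top. Sorted by size, the values of the arrays were nearly alike, with a median spread between arrays of 0.03 and a largest of 0.07 over the brightest 1% of ranks (227). How far closeness to the top and the alignment of the arrays narrow the differences among bright members was not tested.

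**Figure D2:**
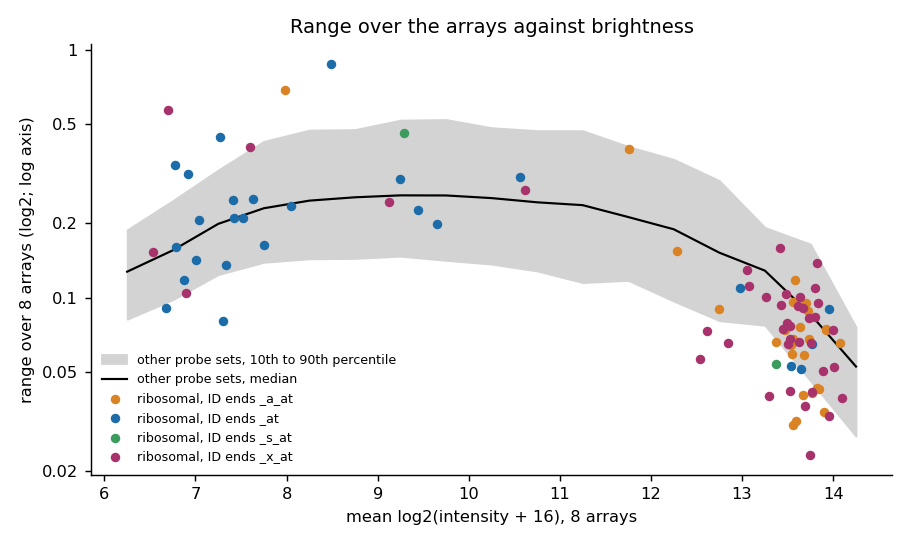
Range over the 8 arrays (log axis) against mean log2(intensity + 16) for the 94 members (points, coloured by the ending of the probe set's name) and for other probe sets (line, median; band, 10th to 90th percentile, in level steps). Ribosomal probe sets of several symbols are in neither group. The bright members have a median range of 0.07, and Rpl27a 1437729_at is the highest point, at 0.88.

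Over time the members as a whole moved very little. Set against the mean of the untreated arrays, the median of all 94 members was -0.0027 (log2) at 20 min, -0.0055 at 40 min, -0.026 at 60 min, -0.016 at 120 min, -0.010 at 180 min and -0.023 at 240 min. The largest of these, at 60 min, is a difference of -1.78%. The untreated arrays differed from each other by a median of 0.0039 over the members, with single members between -0.40 and 0.28.

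Most members shared the direction at 60 min and later in the values as deposited. At 60 min 67 of 94 members were below the untreated mean, and at 120, 180 and 240 min 60, 70 and 72 were. The median of all 15838 probe sets tested stayed between -0.020 at 40 min and 0.0054 at 60 min. The median of the large subunit was -0.0078 at 20 min, -0.013 at 40 min, -0.039 at 60 min and -0.025 at 240 min. That of the small subunit was 0.00024, -0.00061, -0.023 and -0.018, and the difference between the subunits was not tested.

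The shift differed with brightness at some times. The median of the 64 above 12 was -0.018 at 60 min and -0.017 at 240 min. That of the 410 other probe sets above 12 was 0.0086 and 0.011, where other probe sets leave out the ribosomal ones of several symbols. In the 8 members between 9 and 12 the median was -0.13 at 60 min and -0.07 at 240 min, and in the 22 below 9 it was -0.056 at 60 min and -0.094 at 240 min. At 120 min the medians were -0.012 above 12, -0.0053 between 9 and 12 and -0.054 below 9. The shift of other probe sets at the lower levels was not computed. Their median range over the arrays was 0.25 between 9 and 12 and 0.19 below 9. The difference with brightness was not tested. The members of the middle level spread both ways at 60 min, from -0.35 for Rpl13a 1433928_a_at to 0.29 for Rps4l 1452730_at.

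The 60 min array held the lowest value of 30 members (31.9%), against 16.7% of all probe sets tested. Next was the 120 min array with 20 members (21.3% against 16.8%). As a sign of RNA quality, the difference between the 3′ and 5′ control probe sets of Actb was 0.20 at 60 min and between 0.26 and 0.28 on the other arrays, while that of Gapdh lay between -0.07 and -0.00058. The part of this in the members' low values at 60 min was not tested. In a bulk sample, fewer cells of a type and less RNA per cell cannot be told apart.

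**Figure D3:**
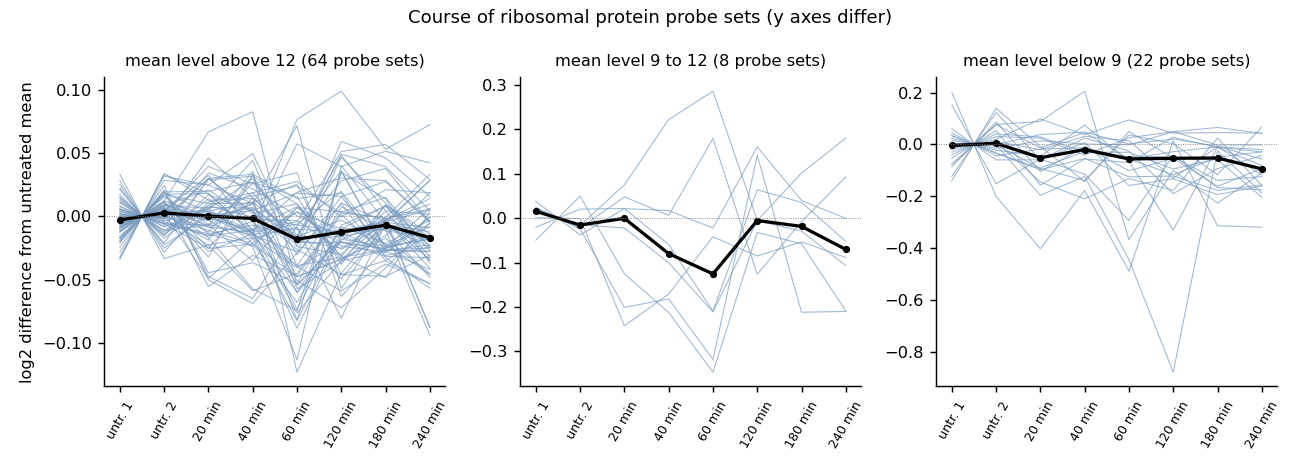
Log2 difference of each member from the mean of the 2 untreated arrays (thin lines) over the 8 arrays, with the median as a thick line, for the 64 members above 12, the 8 between 9 and 12 and the 22 below 9. The y axes differ; the bright members stay between -0.12 and 0.10, and the single deep line of the right panel is Rpl27a 1437729_at at 120 min.

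The arrays' cell type was checked on marker lists. The keratinocyte markers Krt14 and Krt5 were at 14.29 and 14.11 and the dimmest of the list, Krt15, at 7.39, and 11 of 11 measured keratinocyte genes passed the brightness limit used for testing. Melanocyte genes were measured too, with Dct at 11.89 and a summed intensity of 4 genes between 7919 and 9040 over all arrays. Of the other cells, 6 of 8 fibroblast genes, 3 of 7 leukocyte genes and 0 of 4 endothelial genes passed that limit. The brightest and dimmest of these were Vim at 10.58 and Lum at 6.59 for fibroblasts, Cd3e at 7.97 and Ptprc at 6.36 for leukocytes, and Kdr at 7.02 and Cdh5 at 6.56 for endothelial cells. The summed intensity of fibroblast genes was 2523 to 2600 in untreated arrays and 2538 to 2846 after tamoxifen. Of 2 measured adipocyte genes 1 passed that limit: Fabp4 varied from 9.01 to 10.95, while Adipoq stayed between 6.36 and 6.62. The part of other cell types in the members' values was not tested.

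Differences between groups were tested with limma on the 15838 probe sets that remained after the dimmest 30% were left out, and a probe set was called at an adjusted p (Benjamini-Hochberg, over all of these) under 0.05. The filter kept 85 of the 94 members: all 64 above 12, all 8 in the middle and 13 of the 22 below 9. The 9 left out belong to Rpl27a, Rps4x, Rps18 (2 probe sets), Rpl39, Rps9, Rpl3l, Rps6 and Rpl35. The early window (20 to 60 min) and the late window (120 to 240 min) each hold 3 arrays at different times, and both are compared with the same 2 untreated arrays.

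All tamoxifen arrays against the untreated arrays asks what the times had in common. No member of 85 was called, nor any probe set (0%), and the smallest adjusted p of a member in limma was 0.974. At an unadjusted p under 0.05, 0 members were higher and 1 was lower, against 1.44% and 2.14% of all probe sets tested. Of the 85 members, 63 (74.1%) had a difference below 0 and 22 above, against 52% and 48% of all tested. The median over all 94 members was -0.014, against -0.0035 for all probe sets tested, and with each array centred on its median it turned to 0.0032, against 0.013 for all.

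In that comparison 0 members lay above and 6 (7.06%) lay below both untreated arrays at all 6 times, against 3.37% and 3.66% of all tested. They were Rpl27a 1437729_at, Rpl37a 1416218_x_at, Rps19 1449243_a_at, Rps3 1435151_a_at, Rps7 1419364_a_at and Rps9 1426958_at, of which Rps19, Rps3 and Rps7 are named after their values were seen. Rps19 was at 13.59 and 13.60 untreated and at 13.55, 13.58, 13.51, 13.58, 13.59 and 13.50 from 20 to 240 min. The groups of Rps19 do not overlap, and its highest tamoxifen value, at 180 min, lies within 0.01 of the lower untreated one. Rps9, a protein of the small subunit, was at 7.65 and 7.58 untreated by 1426958_at and at 7.52, 7.56, 7.49, 7.495, 7.44 and 7.46. Its difference was -0.12 ± 0.05 (SE), while the bright Rps9 1433689_s_at stayed between 13.34 and 13.40.

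In the early window no member was called either (0% of all tested), and the lowest adjusted p of any member was 0.342 in limma. At an unadjusted p under 0.05, 1 member was higher and 5 were lower (5.88%), against 6.42% and 7.15% of all probe sets tested. Both shares of members were below those of all probe sets. Groups did not overlap for 2 members above and 18 (21.2%) below untreated, against 15.8% and 19.5%. Differences were below 0 for 57 members (67.1%) and above for 28, against 54.7% and 45.3%. The median of all 94 members was -0.0099, beside -0.012 for all tested, and with median centring it turned to 0.012, beside 0.0097.

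The member highest in the early window was Rps4l. Its 1452730_at was at 9.16 and 9.13 untreated and at 9.22, 9.36, 9.43, 9.14, 9.24 and 9.32 after tamoxifen. All of its early values lie above the untreated ones, and the 120 min value lies between them. The early difference was 0.19 ± 0.07 (SE; adjusted p = 0.352 in limma). Rps25, a small subunit protein used by viral internal ribosome entry sites, had its highest value at 60 min too, at 10.72, and its lowest at 120 min, at 10.41.

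The members lowest in the early window were dim or of the middle level. Rps20, a protein of the small subunit head, was at 8.40 and 7.997 untreated by 1450417_a_at and at 7.79, 8.02, 7.71, 8.21, 7.88 and 7.88 from 20 to 240 min. The untreated arrays are 0.40 apart there and overlap with the 40 and 120 min arrays. Its early difference was -0.36 ± 0.14 (SE; adjusted p = 0.352 in limma), and it depends on the untreated array used, at -0.16 without untreated replicate 1 and -0.56 without untreated replicate 2. Over all tamoxifen arrays the same 2 settings gave -0.08 and -0.48. A second dim probe set of Rps20, 1421935_at, ran with it, at 7.53 and 7.23 untreated and 7.32, 7.26, 7.08, 7.33, 7.21 and 7.20 later. The bright Rps20 probe sets 1456436_x_at and 1456373_x_at ranged over 0.09 and 0.16 only, and both were also lowest at 60 min.

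Rpl22, a large subunit protein that also binds viral and cellular RNAs, was at 9.44 and 9.39 untreated by 1448398_s_at and at 9.21, 9.23, 9.09, 9.55, 9.20 and 9.20. The 120 min array stands above both untreated arrays and the 5 other times below them. The early difference was -0.23 ± 0.10 (SE; adjusted p = 0.365 in limma). Its other probe set, 1416603_at, lay between 12.90 at 120 min and 13.01 at 240 min, so that the time at which the first was highest was the time at which the second was lowest.

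Rpl13a, a large subunit protein that also represses translation of inflammatory mRNAs once released from the ribosome, had the smallest p of the members in the early window. Its 1433928_a_at was at 11.83 and 11.93 untreated and at 11.75, 11.67, 11.53, 11.85, 11.82 and 11.67 after tamoxifen. The early difference was -0.23 ± 0.08 (SE; adjusted p = 0.342 in limma). All 4 Rpl13a members had their 3 early values below both untreated ones. The 3 bright ones, at means of 13.53, 13.93 and 13.99, did so within ranges of 0.07.

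Rpl12, which sits at the base of the ribosomal stalk, was at 8.14 and 8.16 untreated by 1435655_at and at 8.01, 7.94, 8.02, 7.97, 8.18 and 7.99. Only the 180 min value is above the untreated ones. No other member reports on Rpl12, and its early difference was -0.16 ± 0.07 (SE; adjusted p = 0.357 in limma). Rps6, the ribosomal target of the S6 kinases, was at 9.52 and 9.49 untreated and at 9.48, 9.40, 9.29, 9.498, 9.48 and 9.40 by 1416142_at. Its early difference was -0.11 ± 0.06 (SE). The other Rps6 member, 1453466_at, was too dim to be tested and had an early difference of 0.0028.

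The late window against untreated had no call (0% of all tested), and the smallest adjusted p of a member in limma was 1. At an unadjusted p under 0.05, 0 members were higher and 1 was lower, against 1.25% and 2.03% of all tested. The 1 was Rps9 1426958_at, with -0.15 ± 0.05 (SE). Groups did not overlap for 5 members above (5.88%) and 17 below (20%), against 9.16% and 8.62%. Differences were below 0 for 66 members (77.6%) and above for 19, against 46.8% and 53.2%. These shifts were small: the median of all 94 members was -0.018, against 0.0046 for all tested, and with median centring -0.0063, against 0.016.

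Of the 17 members below untreated at all 3 late times, 13 were among those above 12, as were 64 of all 85 members tested, a similar share. Among them were Rplp0, Rps29 1415833_x_at and the brightest member, Rpl41 1455578_x_at, whose late values all lay within 0.04 of the lower untreated one. Of the 5 above untreated, 3 were probe sets of Rps10, a small subunit protein at the mRNA entry that is mutated in Diamond-Blackfan anaemia. Rps10 1439374_x_at was at 13.05 and 13.02 untreated and at 13.05, 13.02, 13.11, 13.13, 13.09 and 13.11, with a late difference of 0.07 ± 0.05 (SE). The Rps10 probe sets that do not overlap all lie above 12 and have ranges from 0.07 to 0.11. Of the 6 Rps10 members, 1416719_a_at and 1438723_a_at overlapped with untreated, at late differences of 0.02 and 0.04. The dim 1436384_at overlapped too, and its late difference was -0.10.

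Late against early times, which does not use the untreated arrays for its difference, had no call among members or all probe sets (0%), and the lowest adjusted p of any member was 0.32 in limma. At an unadjusted p under 0.05 there were 0 members either way, against 10.9% higher and 7.5% lower of all tested. Groups did not overlap for 3 members above and 5 below (3.53% and 5.88%), against 12.3% and 8.53%. Differences were above 0 for 38 members and below for 47 (55.3%), against 54.3% and 45.7%. The smallest p belonged to Rps27 1460699_at, whose difference was -0.09 ± 0.05 (SE). The median of all 94 members was -0.0043.

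**Figure D4:**
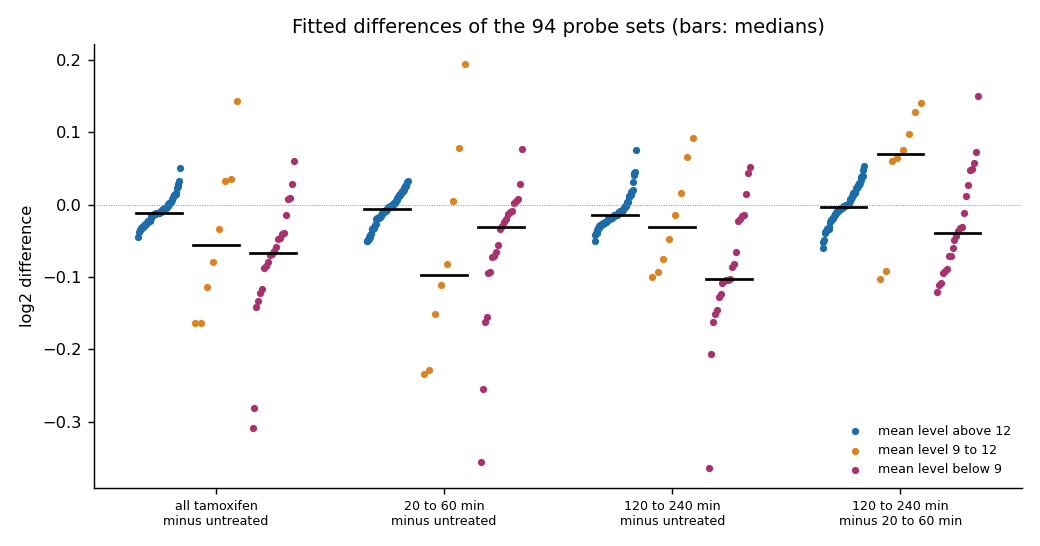
Fitted log2 differences of the 94 members (points, sorted within each group) in the 4 comparisons, coloured by mean level, with black bars for the medians. Members above 12 lie between -0.06 and 0.07 in each comparison, and the lowest points, near -0.36, are Rps20 1450417_a_at at 20 to 60 min and Rpl27a 1437729_at at 120 to 240 min.

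The precision of the bright members bounds what could have been missed on this scale. Their 95% intervals from limma lay between -0.15 and 0.15 for all tamoxifen arrays, -0.18 and 0.16 for the early window, -0.16 and 0.19 for the late window, and -0.15 and 0.15 between the windows. All 64 include 0 in each comparison. For the tested members below 9 the intervals reached from -0.84 to 0.44 over the comparisons. A call missed at these sizes does not show that the levels were the same.

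Calls appeared in other settings of the fit for all probe sets, and seldom for members. With array weights, 3 of 85 members were called higher at late than at early times, against 30.6% of all probe sets tested, and limma reported that the weights had not fully converged. They were Rpl12 1435655_at (0.18 ± 0.05, SE; adjusted p = 0.0264 in limma), Rpl37a 1416218_x_at (0.12 ± 0.04; 0.0412) and Rpl13a 1433928_a_at (0.14 ± 0.05; 0.0456). Without the 240 min array 9.05% of all probe sets and 0 of 84 members were called between the windows. With a proliferation covariate, the mean level of 24 genes of the G2 and M phases in each array, 3.65% of all were called in the early window and 3.6% between the windows, and 0 members. That mean was 9.54 and 8.74 in the untreated arrays and between 8.75 and 9.45 after tamoxifen. For the late window, array weights and the covariate each gave 0.00631% of all probe sets and 0 members.

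Taken 1 time at a time, with no test, a single value past 0.5 from both untreated arrays was found for 1 member and 1 time, Rpl27a at 120 min, where 0.0505% of all probe sets tested passed that limit. At 20, 40, 60, 180 and 240 min 0 members passed, against 0.0568%, 0.126%, 0.701%, 0.0253% and 0.0947% of all. Between the untreated arrays 0 members were at least 0.5 apart, against 0.884%.

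Rpl27a encodes a core protein of the large subunit. Its 1437729_at was at 8.72 and 8.72 untreated and at 8.53, 8.60, 8.28, 7.84, 8.70 and 8.54 from 20 to 240 min. The low point is 1 array, 120 min, and at 180 min the value was back within 0.03 of the untreated ones. Over all tamoxifen arrays the difference was -0.31 ± 0.19 (SE; adjusted p = 0.974 in limma), the lowest of the members, and in the late window -0.36 ± 0.21. The size of both depends on the 120 min array: without it they were -0.20 ± 0.09 and -0.11 ± 0.10. The first was then no longer the lowest, as Rps20 1450417_a_at was at -0.34. At the other times 1437729_at still lay below both untreated values. Its early difference of -0.25 was -0.16 without the 60 min array.

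Other probe sets of Rpl27a did not show that low point. The second member, 1419799_at, was too dim to be tested, at 7.07 and 7.07 untreated and at 6.98, 7.04, 7.02, 7.02, 6.93 and 6.95. A bright probe set that lists 5 symbols, Rpl27a among them, 1426661_at, was at 13.60 and 13.64 untreated and at 13.65, 13.65, 13.58, 13.63, 13.63 and 13.59. At 120 min these probe sets differed from their untreated means by less than 0.1, where 1437729_at differed by -0.88. Without the 120 min array the late minus early difference of 1437729_at turned from -0.11 to 0.15.

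**Figure D5:**
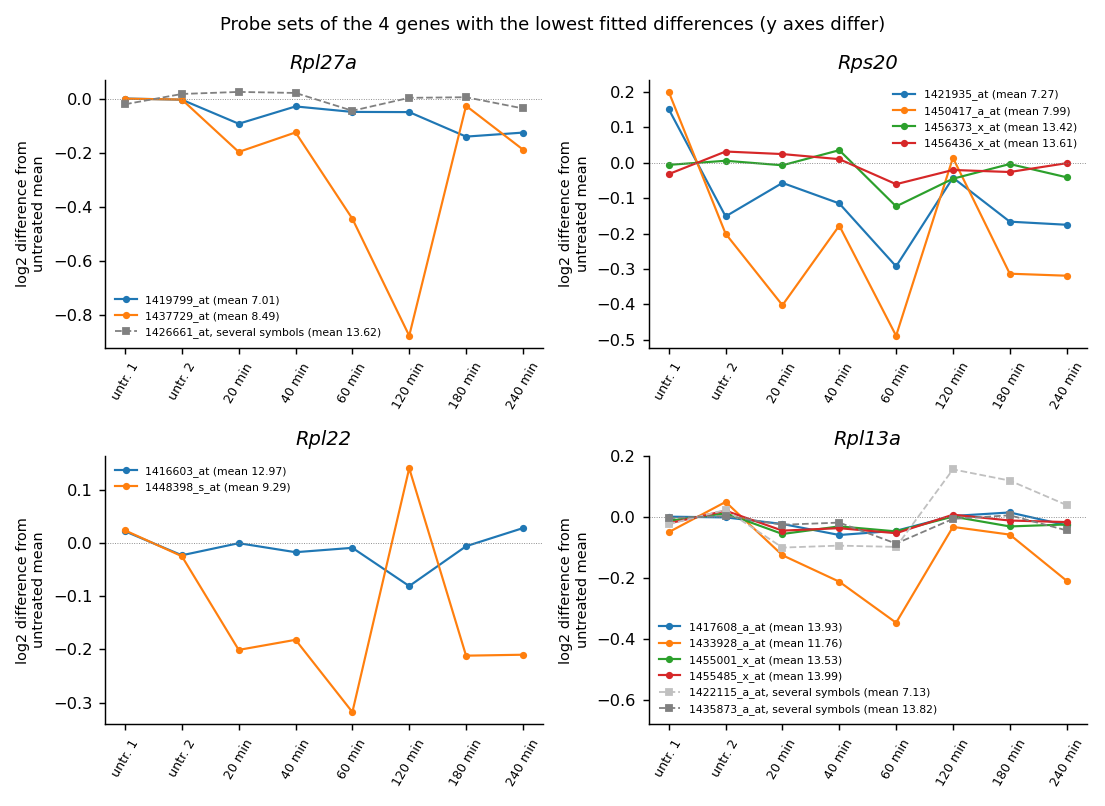
Log2 difference from the mean of the 2 untreated arrays for each member probe set of Rpl27a, Rps20, Rpl22 and Rpl13a (solid lines) and for probe sets listing the gene among several symbols (dashed grey), over the 8 arrays, with mean levels in the key. The y axes differ; in each gene 1 or 2 dimmer probe sets move while the bright ones stay close to 0.

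Bright probe sets of the same gene ran together more often than those of different genes. Across the 8 arrays, the Pearson correlation of 53 pairs of members above 12 from the same gene (16 genes) had a median of 0.55, and 46 were above 0. For 1963 pairs from different genes the median was 0.10, and 1130 were above 0. All pairs share the same 8 arrays, and probe sets of 1 gene can share probe sequence, so these values are a description. The highest gene was Rps7, a small subunit protein, at 0.90: its 1419364_a_at and 1435593_x_at both had their lowest value at 60 min, at 13.69 and 13.20. The lowest was Rps24, at a median of -0.09 over 6 pairs.

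Other genes of translation were described in the same fits. Ribosomal proteins and close relatives that carry other kinds of symbol (5 genes, 7 probe sets, such as Rpsa) had 0 calls in either direction in the 4 comparisons, and medians from -0.024 to -0.0024. Their only unadjusted p under 0.05 belonged to Rpl7l1, a nucleolar relative of Rpl7, by both of its probe sets. Rpl7l1 1452049_at was at 9.96 and 9.70 untreated and at 9.98, 10.21, 10.34, 9.80, 9.88 and 10.06 after tamoxifen, an early difference of 0.35 ± 0.12 (SE; adjusted p = 0.342 in limma). Rpl7 itself, which acts in the mature large subunit, lay between 13.41 and 13.51 by 1415979_x_at.

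Elongation factors and other genes listed beforehand as having TOP mRNAs (15 genes, 29 probe sets tested) also had 0 calls. Whether their starts have the TOP form was not checked here. In the early window 22 of 29 were above 0, with a median of 0.028, against a median of -0.0099 over the 94 members, and between the windows 25 were below 0, with a median of -0.038. Vim, the intermediate filament vimentin, had 3 of the 3 unadjusted p under 0.05 of that list in the early window. All 3 were higher, and of all probe sets tested 6.42% were higher and 7.15% lower at that limit. For mitochondrial ribosomal proteins, which serve the separate ribosome of mitochondria (74 genes, 113 probe sets tested), there were 0 calls. Of these 70 were above 0 in the early window, at a median of 0.032, and 69 were below 0 between the windows, at a median of -0.036. Mrpl38 had the smallest early p, with 0.26 ± 0.06 (SE; adjusted p = 0.342 in limma). Among all probe sets tested, 45.3% were above 0 in the early window and 45.7% below 0 between the windows. Differences between these lists and the members were not tested.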

How the data were processed

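Per the labels' protocols, Trizol was used to extract total RNA, from which biotin-labelled cRNA was made for Affymetrix arrays. The deposited values are linear intensities per probe set. Neither the summary of probes nor the scaling by the authors is given in the sources used here. The number of arrays, 8, limits the precision.

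The values were used without further scaling, as log2(intensity + 16). Differences are on that scale, which understates those of dim probe sets. After 64 control probe sets were left out of 22690, 20380 had 1 gene symbol in the platform annotation, 691 several and 1555 none. All 94 members matched RefSeq (GRCm38.p6) by Entrez identifier, and 0 symbols differed. Probe sets in the dimmest 30% by mean (log2 below 7.04) were not tested. Fits used limma 3.58.1 (lmFit, eBayes) in R 4.3.3: 1 with all 6 tamoxifen arrays against untreated (6 residual degrees of freedom), and 1 with 3 windows (5 residual degrees of freedom). The fits were tested on simulated data.

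Named probe sets are the 5 brightest, 5 dimmest and 5 of largest range, the 4 highest and 4 lowest differences of each comparison, the 5 genes whose probe sets differ most, any single value past 0.5, the stalk genes and paralogues, other probe sets of these genes, and up to 4 genes of each other translation list. Rps3, Rps7, Rps15 and Rps19 were named after their values were seen. Members and lists were chosen with earlier results of these data known. Alternatives were other pseudocounts, other brightness filters, 1 probe set per gene, no _x_at or _s_at probe sets, median centring, quantile normalization, array weights, a G2 and M phase covariate, leaving out each array, and other limits for closeness to the top. Inclusion of probe sets with several symbols and use of bright members alone were added after seeing the data.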

Additional observations from a re-analysis of the deposited data

Results flagged for a closer look

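Within the 6 tamoxifen arrays, 1 array stood far from the others (gap to the nearest value over the whole range, above Dixon's 95% limit) in 4 of the 69 named probe sets, and in each it was the 120 min array. Chance flags about 5% of groups, and probe sets of 1 array are not independent. Rpl14 1422128_at was high at 9.78, where the other times lay between 9.60 and 9.66. Rpl22 1448398_s_at was high at 9.55, against 9.09 to 9.23. Rps18 1448739_x_at was high at 13.80, against 13.74 to 13.76. Rpl41 1454639_x_at was low at 7.32, against 7.58 to 7.72.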

How the results depend on the processing

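No paired analysis was possible because the tamoxifen times have 1 array each and the labels do not pair them with an untreated array. The median member difference kept its sign when any 1 array was left out, at -0.019 to -0.0091 for all tamoxifen arrays, -0.017 to -0.00093 at 20 to 60 min and -0.021 to -0.015 at 120 to 240 min. Between the windows it ranged from -0.015 (without the 60 min array) to 0.0027 (without the 40 min array). With median centring of the arrays these medians were 0.0032, 0.012, -0.0063 and -0.015, against 0.013, 0.0097, 0.016 and 6.41e-05 for all probe sets, so the sign turned in the first 2 comparisons, as the centring moved the members and all probe sets up together. The count of members called was 0 in each comparison when any 1 array was left out, and 3 with array weights between the windows. Rpl13a 1433928_a_at was then called, at 0.14. The share of member values near the top was 3.46% at a limit of 80% of the highest value and 67.2% at 25%. Signs turned when an array was left out in 4 named results. Over all tamoxifen arrays Rpl14 1422128_at ranged from -0.0018 (without untreated replicate 2) to 0.074, and Rps10 1456497_x_at from -0.00081 (without untreated replicate 1) to 0.066. Rps20 1421935_at ranged from -0.28 to 0.024 (without untreated replicate 1) in the late window, and Rpl27a 1437729_at from -0.28 to 0.15 (without the 120 min array) between the windows, where it was 0.11 with array weights, and the cause of that sign was not tested. Of the values of 8 named probe sets per comparison under the alternatives, 134 of 136, 137 of 137, 134 of 135 and 133 of 136 kept their direction and their side of the threshold.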

Other observations

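The 102 probe sets that list a ribosomal protein among several symbols had a median level of 13.52 and a median range over the arrays of 0.09, beside 13.49 and 0.09 for the members, and the 77 of them above 12 had a median range of 0.07. Over all tamoxifen arrays 71 of the 102 were below untreated, with a median difference of -0.0078, and at 120 to 240 min 59 were, with a median of -0.0044, beside 73 of 94 members with a median of -0.018. These differences were not tested. For Rpl13a, 1435873_a_at, which lists 2 symbols, was at 13.83 and 13.84 untreated and at 13.81, 13.82, 13.75, 13.83, 13.84 and 13.79 from 20 to 240 min, so its 3 early values also lay below both untreated ones. The dim 1422115_a_at, which lists Rpl13a too, was at 7.11 and 7.15 untreated, between 7.03 and 7.04 in the early window, and at 7.29, 7.25 and 7.17 later.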
